A study of Rattus norvegicus with 9 samples.

Results

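The 8 genes described here encode the core of insulin and insulin-like growth factor (IGF) receptor signalling, and were chosen by name from the 20645 genes of the deposited table. They are the receptors Insr and Igf1r, the docking proteins Irs1 and Irs2, the phosphoinositide 3-kinase (PI3K) regulatory subunit Pik3r1, the kinases Akt1 and Akt2, and the transcription factor Foxo1. All 8 were found in the table and passed the filter used for testing, a mean of at least 1 FPKM (fragments mapped to the gene, relative to its length and to the library total) over the libraries. RNA was from INS-1E cells, an insulin-secreting rat insulinoma line, in 3 groups of 3 libraries, so the values describe 1 tumour-derived line and not islets. The BSA group received fatty-acid-free bovine serum albumin, the PA group palmitic acid (0.5 mM), and the PA + C3G group the same PA together with the anthocyanin cyanidin-3-O-glucoside (C3G, 50 µM), each for 24 h. The labels give the agents and the time, and the doses are those of the study's methods. No group received C3G without PA.

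Insulin and IGF-1 bind related receptor tyrosine kinases, which phosphorylate the insulin receptor substrate (IRS) proteins. These recruit PI3K, whose lipid product leads to the activation of Akt, and Akt phosphorylates FOXO1 and so holds it out of the nucleus. Beta cells carry this pathway themselves, and Irs2 in particular is known for its part in beta cell growth and survival. The RNA levels given here say nothing of phosphorylation or of protein.

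Library sums of the estimated counts ran from 45559993, in PA + C3G replicate 3, to 66730721. All 10 beta cell markers checked, Ins1 and Ins2 among them, had a mean of at least 1 FPKM, and their summed level was 45700 to 46400 FPKM with BSA, 19300 to 19800 with PA and 42100 to 47900 with PA + C3G. Ins1 and Ins2 made 78.4% to 88.9% of these sums, and the other 8 markers summed to 5430 to 5740 FPKM with BSA, 3750 to 4160 with PA and 5250 to 5380 with PA + C3G. The part of this difference in the results was not tested. In bulk RNA, a lower level in every cell and fewer cells with a high level cannot be told apart. Of the markers of other pancreatic and stromal cells, the acinar and duct list was the highest, with a summed level of 80.8 to 119 FPKM with BSA, 86.4 to 124 with PA and 101 to 149 with PA + C3G, of which the keratin gene Krt7 made at least 99.8% in every library, while the acinar genes Cpa1 and Cela1 stayed under 0.1 FPKM in every library. The other islet hormone list summed to 9.55 to 31.9 FPKM with BSA, 2.68 to 7.01 with PA and 5.37 to 23.1 with PA + C3G, led by glucagon (Gcg), and its part in the results was not tested.

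On the FPKM scale, which allows genes of different length to be compared, the 8 genes ranged from near the bottom to near the top of the 12958 genes tested. In the BSA group the order was Irs2, Akt1, Akt2, Foxo1, Pik3r1, Igf1r, Irs1 and Insr, from 83.7 ± 2.42 FPKM (SD, n = 3) for Irs2 to 1.29 ± 0.138 for Insr. No 2 neighbours in this order had overlapping libraries. Irs2 stood above 93.0% of the tested genes and Insr above 3.31%. INS-1E cells thus held far more RNA of Irs2 than of Irs1, at an FPKM ratio within a library of 44.0 ± 2.93 (SD, n = 3) with BSA, and more of Igf1r than of Insr, at a ratio of 12.5 ± 1.91. The order was kept with PA, except that Pik3r1 came above Foxo1. With PA + C3G the order was that of the BSA group, but Foxo1 and Pik3r1, and Pik3r1 and Igf1r, overlapped between libraries.

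**Figure D1:**
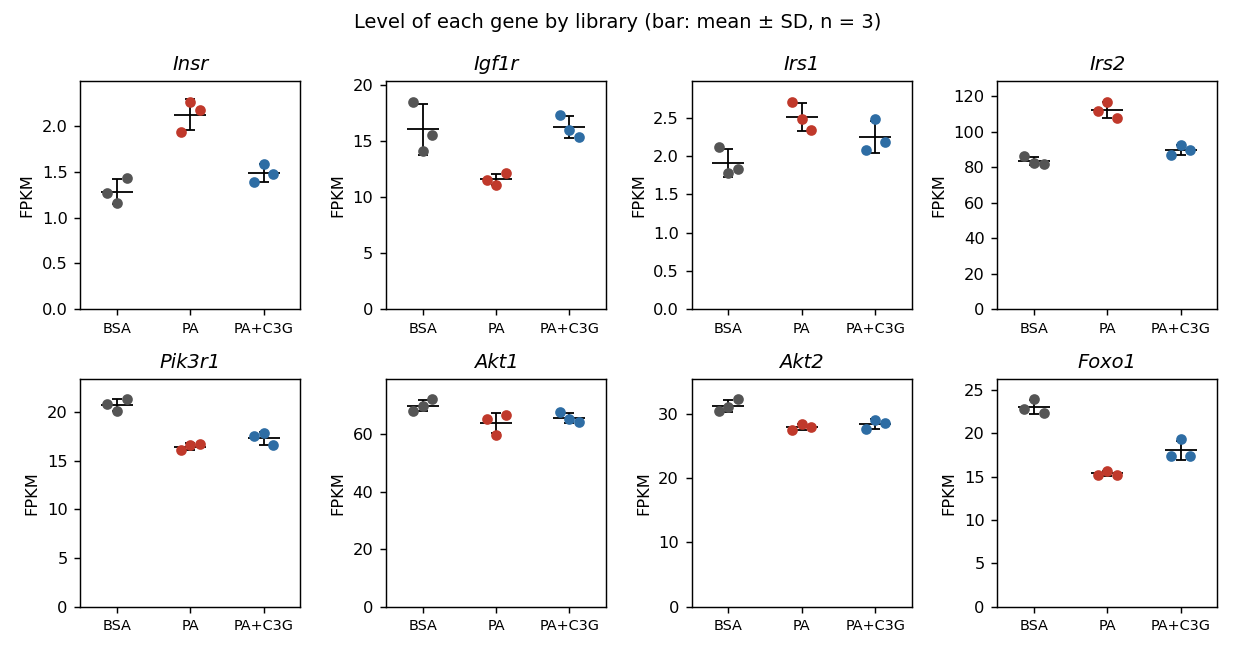
Level of the 8 genes in FPKM (vertical axes, each starting at 0) in every library of the BSA, PA and PA + C3G groups. Points are libraries and bars the mean ± SD of 3. The PA libraries lay above the BSA libraries for Insr, Irs1 and Irs2 and below them for the other 5 genes.

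Start-site sequences were read from the RefSeq promoter table (GRCr8), which held a 300-base window, 250 bases before to 50 after the start, for 7 of the 8 genes. Irs2 has no entry there. A FOXO-type motif, GTAAACA on either strand, is present in 3.78% of all 33469 windows and was found in the window of Insr only, where it begins 100 bases before the start. It is shown because Insr is known as a FOXO1 target gene and because its RNA changed most with PA among the 8 genes. In the 30 bases at chr12:6128885-6128914 on the minus strand, the capitals mark the motif, read on this strand as TGTTTAC. This start is not the outer edge of the RefSeq gene.
Insr: acgggccgcgtTGTTTACtggccggagtcg

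The 250 bases before the start are printed for Irs1, which rose with PA, and for Foxo1 and Pik3r1, which fell with it, since for these the start is the outer edge of the RefSeq gene. They are at chr9:91053960-91054209 (minus strand), chr2:138462724-138462973 (plus strand) and chr2:34697661-34697910 (minus strand). Capitals mark the GC box GGGCGG on either strand, which 33.1% of all windows hold. In these stretches Pik3r1 has 7 GC boxes, Irs1 has 2 and Foxo1 none, so the pair of genes that fell together differed in this feature.
Irs1: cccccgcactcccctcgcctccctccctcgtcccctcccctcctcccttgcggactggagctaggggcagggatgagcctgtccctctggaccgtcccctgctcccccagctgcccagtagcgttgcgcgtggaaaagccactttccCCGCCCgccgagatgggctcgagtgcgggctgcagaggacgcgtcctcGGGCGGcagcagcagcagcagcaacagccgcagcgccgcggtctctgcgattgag
Foxo1: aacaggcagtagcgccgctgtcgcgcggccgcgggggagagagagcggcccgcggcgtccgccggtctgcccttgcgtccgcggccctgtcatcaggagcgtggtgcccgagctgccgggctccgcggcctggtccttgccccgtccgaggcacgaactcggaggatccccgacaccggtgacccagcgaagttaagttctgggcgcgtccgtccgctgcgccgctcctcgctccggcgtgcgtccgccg
Pik3r1: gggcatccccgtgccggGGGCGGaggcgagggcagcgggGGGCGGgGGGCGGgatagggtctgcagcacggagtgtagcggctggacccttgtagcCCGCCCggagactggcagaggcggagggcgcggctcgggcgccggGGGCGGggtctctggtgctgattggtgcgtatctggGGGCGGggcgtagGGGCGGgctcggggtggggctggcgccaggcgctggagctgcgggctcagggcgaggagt
The windows of 5 of the 7 genes had a GC content above 70%, against a median of 51.7% over all windows. Those of Akt1 (56.0%) and Akt2 (49.7%) did not. The insulin response sequence CAAAACA (in 6.28% of all windows) and the cyclic AMP response element TGACGTCA (in 1.83%) were in none of the 7 windows, and the E-box CACGTG (in 6.42%) was in that of Igf1r only. A match or its absence in these letters says nothing of whether a factor binds.

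The first comparison, of PA with BSA, asks what the fatty acid did to the pathway. PA raised the RNA of Insr and of both docking proteins and lowered that of Igf1r, Pik3r1, Akt2 and Foxo1, all by less than 2-fold. By edgeR's quasi-likelihood test with Benjamini-Hochberg adjustment over all genes tested, 7 of the 8 genes passed an adjusted p of 0.05, 3 higher and 4 lower, where 51.0% of all tested genes did, 25.8% higher and 25.2% lower. The BSA and PA libraries did not overlap in FPKM for any of the 8 genes, as was so for 59.9% of all tested genes. None met the study's criterion for a differentially expressed gene, a fold change above 2 with an unadjusted p under 0.05, which 7.56% of all tested genes met. The median log2 fold change of the 8 genes was -0.12, and that of all tested genes was 0.003. The labels number the replicates without saying whether they were separate cultures, and the methods state biological triplicates for the experiments in general, so the p-values measure the spread between these libraries, which may be partly technical.

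The 2 receptors moved in opposite directions. Insr (ENSRNOG00000029986, chromosome 12 from 1680957 to 1816414 in the authors' table, whose genome build is not given in the sources used here) encodes the insulin receptor. Its level was 1.27, 1.16 and 1.43 FPKM in the BSA libraries, 1.94, 2.27 and 2.18 with PA, and 1.39, 1.59 and 1.48 with PA + C3G. Every PA library was above every library of the other groups. With PA, Insr rose 1.68-fold over BSA, a log2 fold change of 0.75 (standard error, SE, of 0.11; edgeR adjusted p = 0.000383).

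Igf1r (ENSRNOG00000014187, chromosome 1 from 128924966 to 129206516) encodes the type 1 IGF receptor, which binds IGF-1 and IGF-2. It was at 18.5, 14.1 and 15.5 FPKM with BSA, 11.5, 11.1 and 12.1 with PA, and 17.3, 16.0 and 15.4 with PA + C3G. The PA libraries were the lowest, and the BSA libraries spread the most. Igf1r fell by 0.45 on the log2 scale with PA (SE 0.091, edgeR adjusted p = 0.00246), and with BSA replicate 1, its highest library, left out, by 0.34.

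The receptors moved apart also in their ratio within a library, which does not depend on how libraries are scaled. The FPKM of Igf1r over that of Insr was 14.6, 12.2 and 10.8 in the BSA libraries and 5.94, 4.88 and 5.54 in the PA libraries. With PA + C3G it was 12.5, 10 and 10.4. The mean log2 ratio was 1.19 lower with PA than with BSA and 1.0 higher with PA + C3G than with PA, and in neither case did the libraries overlap (two-sided exact permutation p = 0.1, the lowest value possible with 3 libraries per group). PA + C3G and BSA overlapped in this ratio, with a difference of -0.19 in the mean log2 ratio (exact permutation test, p = 0.3).

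**Figure D2:**
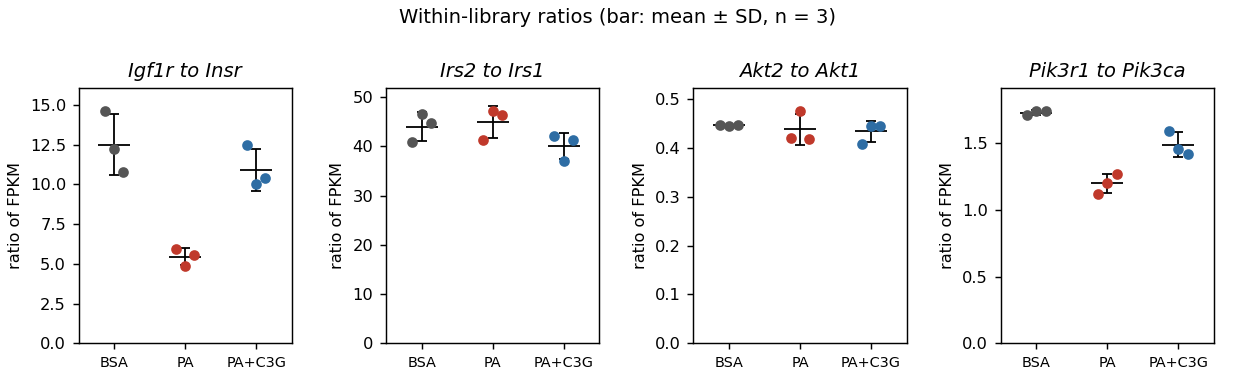
Ratio of the FPKM of 2 genes within each library (vertical axes, linear, starting at 0) for the BSA, PA and PA + C3G groups. Points are libraries and bars the mean ± SD of 3. The Igf1r to Insr ratio was 5.45 on average with PA, against 12.5 with BSA and 10.9 with PA + C3G, whereas the Akt2 to Akt1 ratio lay between 0.408 and 0.475 in all libraries.

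Both docking proteins rose with PA. Irs2 (ENSRNOG00000023509, chromosome 16 from 83824430 to 83848684), whose product links both receptors to PI3K, was at 86.4, 82.7 and 81.9 FPKM with BSA, 112, 117 and 108 with PA, and 87.2, 92.5 and 89.7 with PA + C3G. Its log2 fold change with PA was 0.45 (SE 0.042, edgeR adjusted p = 1.67e-05), the most precise rise among the 8 genes, at 27659 to 52257 estimated counts per library. Irs1 (ENSRNOG00000014597, chromosome 9 from 88033668 to 88086488), the related docking protein, was at 2.12, 1.78 and 1.83 FPKM with BSA, 2.71, 2.48 and 2.34 with PA, and 2.08, 2.49 and 2.18 with PA + C3G. The PA libraries were above the BSA libraries, while the PA + C3G libraries overlapped with both. Irs1 rose by 0.42 on the log2 scale with PA (SE 0.11, edgeR adjusted p = 0.0108). The ratio of Irs2 to Irs1 was 44.0 ± 2.93 (SD, n = 3) with BSA and 44.9 ± 3.21 with PA, a difference in mean log2 ratio of 0.03 (exact permutation test, p = 0.6).

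Of the 4 genes downstream of the docking proteins, 3 fell with PA. Pik3r1 (ENSRNOG00000018903, chromosome 2 from 31745088 to 31826867) encodes the regulatory subunit that brings the catalytic subunit of PI3K to phosphorylated IRS proteins. It was at 20.8, 20.1 and 21.3 FPKM with BSA, 16.1, 16.6 and 16.7 with PA, and 17.5, 17.9 and 16.6 with PA + C3G. Every BSA library was above every other library. The log2 fold change of Pik3r1 with PA was -0.30 (SE 0.043, edgeR adjusted p = 0.000255).

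Pik3ca, which encodes a catalytic partner of Pik3r1 and is not among the 8 genes, rose with PA by 0.23 on the log2 scale (edgeR adjusted p = 0.00492) and fell by 0.21 with C3G over PA (edgeR adjusted p = 0.0221, and between 0.0592 and 0.0740 when any of 4 single libraries was left out, PA replicates 1 and 2 and PA + C3G replicates 1 and 3). The ratio of Pik3r1 to Pik3ca within a library was 1.71, 1.74 and 1.74 with BSA and 1.12, 1.20 and 1.27 with PA. In the PA + C3G libraries it was 1.59, 1.46 and 1.42. None of the groups overlapped in this ratio, and the mean log2 ratio was 0.53 lower with PA than with BSA and 0.32 higher with PA + C3G than with PA (two-sided exact permutation p = 0.1 for each, the lowest value possible).

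The Akt kinases, which carry the signal from PI3K to metabolism, growth and survival, had the smallest fold changes of the 8 genes with PA. Akt2 (ENSRNOG00000018677, chromosome 1 from 84411726 to 84450162) was at 30.4, 31.0 and 32.2 FPKM with BSA, 27.5, 28.4 and 27.9 with PA, and 27.6, 29.0 and 28.6 with PA + C3G. It fell by 0.14 on the log2 scale with PA (SE 0.041, edgeR adjusted p = 0.0184). This call was lost without PA replicate 1 (edgeR adjusted p = 0.0516), without PA replicate 3 (0.0561) and when libraries were scaled to equal FPKM sums, called TPM scaling here (0.0598). Akt1 (ENSRNOG00000028629, chromosome 6 from 137218376 to 137236258) was at 68.0, 69.6 and 72.0 FPKM with BSA, 65.3, 59.8 and 66.5 with PA, and 67.5, 65.1 and 64.2 with PA + C3G. Its log2 fold change with PA was -0.11 (95% interval -0.21 to -0.0023, edgeR adjusted p = 0.0823), and limma on log2(FPKM + 1) gave -0.13 with an adjusted p of 0.0448. The ratio of Akt2 to Akt1 was 0.447 ± 0.000982 (SD, n = 3) with BSA and 0.438 ± 0.0316 with PA, a difference of -0.03 in the mean log2 ratio (exact permutation test, p = 0.6).

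Foxo1 (ENSRNOG00000013397, chromosome 2 from 141451234 to 141527016) encodes the forkhead factor that Akt keeps inactive, and fell the most of the 8 genes. It was at 22.8, 23.9 and 22.3 FPKM with BSA, 15.2, 15.7 and 15.2 with PA, and 17.4, 19.3 and 17.4 with PA + C3G. The groups did not overlap, with PA + C3G between the other 2. The log2 fold change with PA was -0.56, or 1.47-fold lower (SE 0.052, edgeR adjusted p = 1.67e-05).

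The second comparison, of PA + C3G with PA, asks what C3G changed in cells that also received the fatty acid. Igf1r and Foxo1 were higher and Insr and Irs2 lower with C3G than with PA alone. Both comparisons use the same PA libraries, so opposite signs in them are not independent results. By the same edgeR test 4 of the 8 genes passed, 2 higher and 2 lower, where 21.2% of all tested genes did, 11.1% higher and 10.2% lower. None of the 8 was past a 2-fold change with an unadjusted p under 0.05, as 1.13% of all tested genes were. The PA and PA + C3G libraries were apart in FPKM for these 4 genes, and for 39.5% of all tested genes.

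For Igf1r the log2 fold change with C3G was 0.53, or 1.44-fold higher (SE 0.091, edgeR adjusted p = 0.00391), beside the -0.45 with PA over BSA. For Foxo1 it was 0.26 (SE 0.052, edgeR adjusted p = 0.00732), beside -0.56. Irs2 fell by 0.29 with C3G (SE 0.042, edgeR adjusted p = 0.00185), after the rise of 0.45 with PA. Insr fell by 0.48, or 1.39-fold (SE 0.11, edgeR adjusted p = 0.0151). The direction for Insr was the same under all alternatives that tested it, but its call was lost without PA replicate 2 (edgeR adjusted p = 0.0527), without PA replicate 3 (0.0532), without PA + C3G replicate 1 (0.0519) and with limma on log2(FPKM + 0.1) (0.0591). Insr had 458 to 1088 estimated counts per library.

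The other 4 genes did not pass the test in this comparison. The log2 fold change was -0.12 for Irs1 (95% interval -0.37 to 0.13), 0.11 for Pik3r1 (0.013 to 0.21), 0.08 for Akt1 (-0.028 to 0.18) and 0.06 for Akt2 (-0.030 to 0.15). Their adjusted p-values from edgeR lay between 0.103 for Pik3r1 and 0.497 for Irs1. For the Akt genes the sign depended on the scaling, with -0.01 for Akt1 and -0.03 for Akt2 under TPM scaling. A change of 2-fold, which is 1 on the log2 scale, lies outside each of these intervals, but also outside those of the 4 genes that passed. The interval of Irs1 holds -0.29, the value of Irs2.

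**Figure D3:**
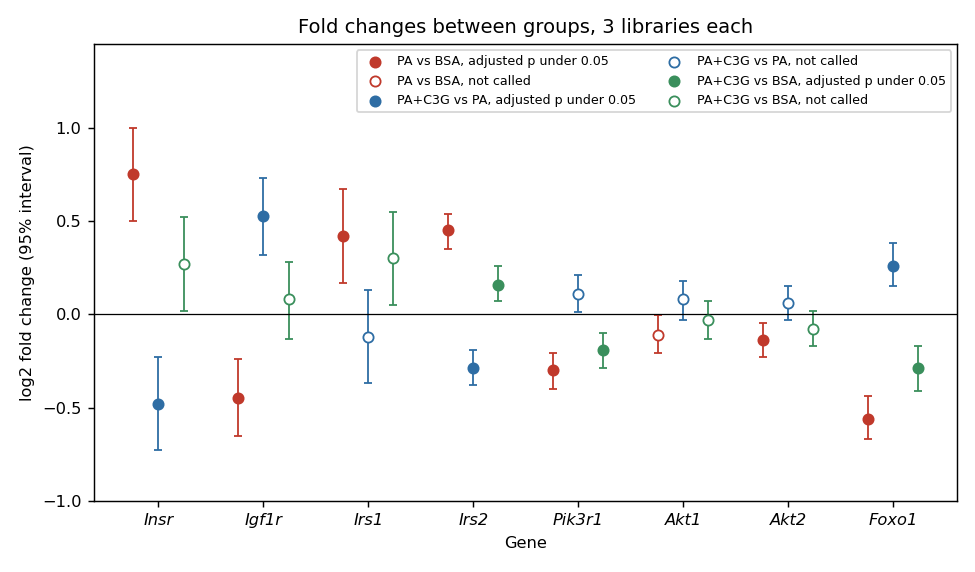
Log2 fold change (vertical axis) of each gene (horizontal axis) for PA versus BSA, PA + C3G versus PA and PA + C3G versus BSA, with 95% intervals from edgeR. Filled points passed an adjusted p of 0.05. The points of PA versus BSA run from -0.56 for Foxo1 to 0.75 for Insr, and those of PA + C3G versus PA, which uses the same PA libraries, from -0.48 for Insr to 0.53 for Igf1r.

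The third comparison, of PA + C3G with BSA, shows how far each gene still stood from the control. Foxo1 and Pik3r1 remained below BSA, with log2 fold changes of -0.29 (SE 0.052, edgeR adjusted p = 0.00185) and -0.19 (SE 0.043, adjusted p = 0.00601). Irs2 was above BSA by 0.16 (SE 0.042, edgeR adjusted p = 0.0131), but under TPM scaling this was 0.10 with an adjusted p of 0.0954 from edgeR, and the call was also lost with limma (0.0822 on log2(FPKM + 1)), without BSA replicate 3 (0.0674) and without PA + C3G replicate 2 (0.0608). Thus 3 of the 8 genes passed, 1 higher and 2 lower, where 36.9% of all tested genes did, 19.0% higher and 17.9% lower. None of the 8 was past a 2-fold change with an unadjusted p under 0.05, as 4.63% of all tested genes were. In FPKM the PA + C3G and BSA libraries were apart for 5 of the 8 genes, these 3 and both Akt genes, and for 50.3% of all tested genes. The Akt genes did not pass the edgeR test. By limma on log2(FPKM + 1) the median log2 fold change of all tested genes was -0.049, against 0.007 by edgeR. Under TPM scaling 3 passed as well, all lower, with Akt2 in place of Irs2.

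Igf1r did not pass in this comparison, with a log2 fold change of 0.08 over BSA (95% interval -0.13 to 0.28, edgeR adjusted p = 0.543). Insr was 0.27 above BSA (95% interval 0.017 to 0.52) and Irs1 0.30 (0.048 to 0.55), with adjusted p-values from edgeR of 0.0893 and 0.0623, so that neither a return to the BSA level nor a lasting rise was shown for them. Irs1 passed with DESeq2 (adjusted p = 0.0437) and without BSA replicate 1 (0.37, edgeR adjusted p = 0.0454). The values for Akt1 and Akt2 were -0.03 (95% interval -0.13 to 0.073) and -0.08 (-0.17 to 0.016). Akt2 passed under TPM scaling (-0.13, edgeR adjusted p = 0.0314) and with limma on log2(FPKM + 1) (-0.13, adjusted p = 0.0241) and on log2(FPKM + 0.1) (-0.14, adjusted p = 0.0240).

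Beyond the 8 genes, 73 other genes of the pathway were listed by role, from ligands to the mTORC1 and Ras-MAPK branches. Of these 71 were in the table and 65 passed the filter. With PA, 39 of the 65 passed the edgeR test (60.0%), 18 higher and 21 lower, and with C3G over PA 21 passed (32.3%), 11 higher and 10 lower, against the shares of 51.0% and 21.2% for all tested genes. The second split depended on the scaling and was 7 higher and 15 lower under TPM scaling. In PA + C3G over BSA 27 passed (41.5%, against 36.9% of all tested genes), 13 higher and 14 lower, or 9 higher and 21 lower under TPM scaling. The median log2 fold change of the 65 genes was -0.06 with PA and 0.01 with C3G, and those of all tested genes were 0.003 and -0.001.

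Among the ligands and their binding proteins, a list that also holds the insulin-degrading enzyme Ide, 11 of 13 genes passed the filter. All 11 passed the test with PA, 9 lower and 2 higher, where 25.2% of all tested genes were lower and 25.8% higher. Igfbp1, among the 9, met the filter only through its BSA level. Its means were 1.95 FPKM with BSA, 0.403 with PA and 0.876 with PA + C3G. Its place among the lower genes, here and in other counts that hold it, therefore depends partly on the filter. Ide was among the 2 higher. Ins2 and Igf1 fell the most, with log2 fold changes of -2.86 and -2.67. Igf1, which encodes a ligand of Igf1r, was at 11.4, 10.6 and 11.1 FPKM with BSA, 1.28, 2.21 and 1.59 with PA, and 3.52, 3.17 and 3.54 with PA + C3G. The groups were fully apart, and Igf1 rose by 1.04 on the log2 scale with C3G (SE 0.17, edgeR adjusted p = 0.00341) while staying 1.63 below BSA. Igf2, whose product also binds Igf1r, had a higher RNA level than Igf1 in every group. Its mean was 87.3 FPKM with BSA, 71.0 with PA and 77.4 with PA + C3G. Igf2 fell by 0.27 with PA (edgeR adjusted p = 0.000851) and rose by 0.16 with C3G (edgeR adjusted p = 0.0362). Its rise with C3G lost its call under TPM scaling and with limma on log2(FPKM + 1). Ins1 fell by 0.93 with PA and rose by 1.26 with C3G, and Ins2 rose by 1.94. With C3G over PA, 5 of the 11 were higher and 1 was lower (3 and 1 under TPM scaling), against 11.1% and 10.2% of all tested genes. The lower gene was Ide, which is neither a ligand nor a binding protein. As paralogs the insulin genes may share reads.

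Of the IGF-binding proteins, which hold IGFs in the extracellular space, Igfbp5 fell by 2.03 and Igfbp3 by 0.89 on the log2 scale with PA, while Igfbp4 rose by 0.59. Igfbp1 also fell, by 2.22, from a mean of 1.95 ± 0.917 FPKM (SD, n = 3) with BSA to 0.403 ± 0.196 with PA, a low level. These 4 genes did not pass with C3G over PA, where Igfbp1 was at 1.15 (edgeR adjusted p = 0.143), Igfbp5 at 0.47, Igfbp4 at 0.16 and Igfbp3 at -0.13. Igfbp7 fell by 0.39 with PA and rose by 0.23 with C3G (edgeR adjusted p = 0.0293). This rise too lost its call under TPM scaling and with limma on log2(FPKM + 1). Igfals, whose product stabilises circulating IGF complexes, fell by 0.97 with PA and was at 0.78 with C3G (edgeR adjusted p = 0.0518). Ide, the insulin-degrading enzyme, rose by 0.45 with PA and fell by 0.41 with C3G (edgeR adjusted p = 0.000180).

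Both other receptors listed passed with PA, where 51.0% of all tested genes did. Insrr encodes the insulin receptor-related receptor, which binds neither insulin nor IGF and responds to alkaline pH. It was at 5.89, 8.36 and 7.19 FPKM with BSA, 1.12, 1.83 and 1.26 with PA, and 3.76, 6.48 and 6.59 with PA + C3G. Insrr had a log2 fold change of -2.32 with PA (SE 0.25, edgeR adjusted p = 4.77e-05) and 2.03 with C3G over PA (SE 0.25, adjusted p = 0.000778), and PA + C3G overlapped with BSA. Igf2r, the mannose 6-phosphate receptor that clears IGF-2, rose by 0.39 with PA and fell by 0.33 with C3G.

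Between receptor and PI3K, the adaptor genes Shc1 and Sh2b1 rose with PA, by 0.81 and 0.48 on the log2 scale, and fell with C3G, by 0.28 and 0.30. The other 5 docking and adaptor genes tested did not pass with PA, so that 2 of 7 passed (28.6%, against 51.0% of all tested genes). Irs3 was under the filter, at 0.270 to 0.791 FPKM with BSA, and was not tested. Among the PI3K subunits tested, the regulatory Pik3r3 fell by 0.82 with PA, as Pik3r1 did, whereas the regulatory Pik3r2 rose by 0.18.

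Of the 6 genes of Akt and its activating kinases, 2 passed with PA (33.3%, against 51.0% of all tested genes). These were Mapkap1, a subunit of the kinase complex mTORC2, higher by 0.30, and Mlst8, shared by both mTOR complexes, lower by 0.16.

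Of the 12 inhibitors, 3 were higher and 3 lower with PA (50.0%), a share near the 51.0% of all tested genes. Phlpp1, a phosphatase that removes an activating phosphate from Akt, rose by 0.87 on the log2 scale and fell by 0.54 with C3G (SE 0.091, edgeR adjusted p = 0.00340). Trib3, a pseudokinase that binds Akt and is also known as a gene of the endoplasmic reticulum stress response, was at 75.2, 65.0 and 68.0 FPKM with BSA, 125, 101 and 129 with PA, and 125, 105 and 109 with PA + C3G. It rose by 0.80 with PA, and with C3G over PA its log2 fold change was -0.03 (edgeR adjusted p = 0.858), so that no change with C3G was detected. Inpp4b, a lipid phosphatase, fell by 1.36 with PA, from a mean of 2.58 FPKM with BSA to 0.983 with PA, a low level.

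The FOXO family did not move as 1 group. Beside the fall of Foxo1, Foxo6 fell by 0.88 on the log2 scale with PA and rose by 0.61 with C3G, Foxo4 rose by 0.62 with PA, and Foxo3 was at -0.06 (edgeR adjusted p = 0.509). With C3G over PA, Foxo4 was at -0.20 (edgeR adjusted p = 0.0645) and Foxo3 at -0.11 (0.336). Tsc1, an inhibitor of mTORC1, rose by 0.47 with PA and fell by 0.27 with C3G, a call lost without any of PA replicate 3 (edgeR adjusted p = 0.0536), PA + C3G replicate 1 (0.0553) or PA + C3G replicate 3 (0.0524). In the Ras-MAPK branch 5 of 10 genes passed with PA, near the share of all tested genes, among them Map2k1, higher by 0.40, and Mapk3, lower by 0.51.

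**Figure D4:**
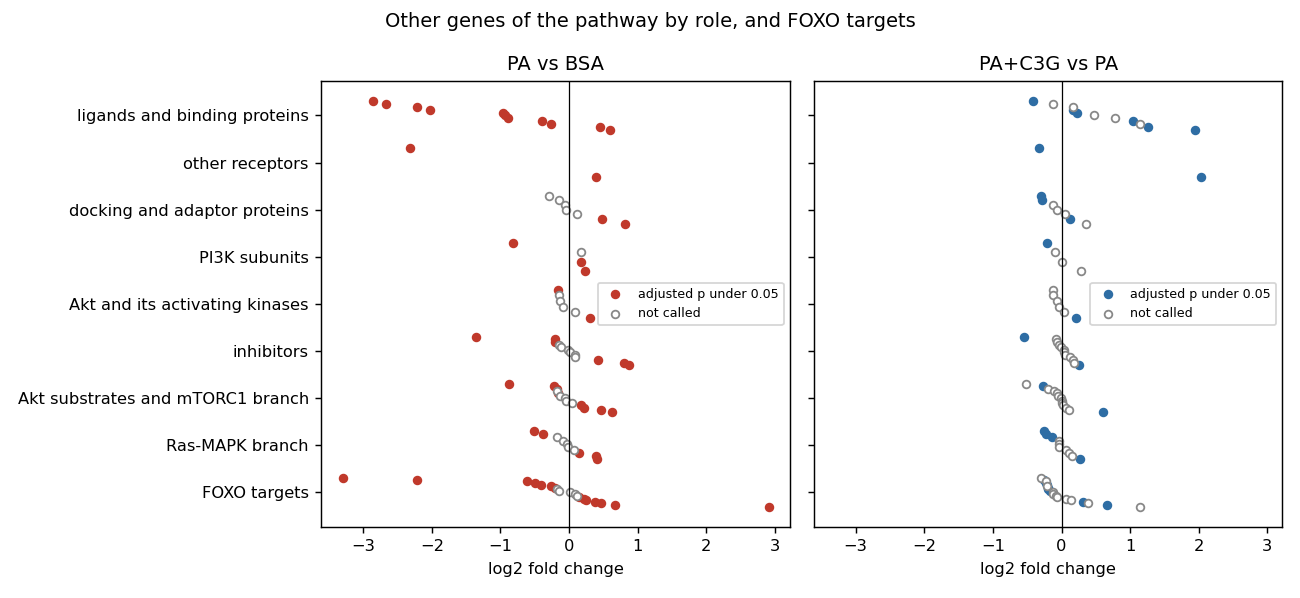
Log2 fold change (horizontal axes) of the other pathway genes by role and of FOXO targets (vertical axis) for PA versus BSA and PA + C3G versus PA. Each point is a gene tested and filled points passed an adjusted p of 0.05. The ligands and binding proteins, a list that also holds Ide, had a median of -0.93 with PA and 0.47 with C3G. Akt and its activating kinases had -0.11 with PA and the Ras-MAPK genes -0.02.

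A list of 24 genes known as FOXO targets, which shares Igfbp1 and Rictor with the pathway list, was read beside the fall of Foxo1. Insr, called a FOXO1 target gene above, was not in this list. Of the 19 tested, PA raised 7 and lowered 7 (73.7%, against 51.0% of all tested genes), and their median log2 fold change was 0.01. The list was not split by direction and also holds genes that FOXO factors repress, such as Ccnd1 and Pdx1. Its counts of higher and lower genes and its medians therefore do not measure FOXO activity. The largest changes were in Ccnd1, the cyclin D1 gene, which FOXO factors repress, and in Txnip, an inhibitor of thioredoxin that is also a glucose-responsive gene. Ccnd1 was at 0.246, 0.418 and 0.388 FPKM with BSA and 2.55, 2.66 and 2.56 with PA, a rise of 2.91 on the log2 scale. Txnip fell by 3.30, from a mean of 90.4 ± 21.8 FPKM (SD, n = 3) to 9.02 ± 0.476. Neither passed with C3G over PA, where Ccnd1 was at -0.21 and Txnip at 0.39.

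In that comparison 8 FOXO targets passed, 2 higher and 6 lower (42.1%, against 21.2% of all tested genes), with a median of -0.12. Under TPM scaling 2 were higher and 7 lower, with a median of -0.21. Pdx1, a beta cell transcription factor that FOXO1 represses, was at 249, 264 and 248 FPKM with BSA, 147, 188 and 155 with PA, and 226, 282 and 251 with PA + C3G. It fell by 0.61 with PA and rose by 0.67 with C3G (SE 0.10, edgeR adjusted p = 0.00199), the same directions as Foxo1. Sesn2, the other target that was higher with C3G over PA, rose by 0.31 (edgeR adjusted p = 0.00999). The 6 targets that were lower went the other way from Foxo1, which rose. As the list also holds repressed genes, neither direction measures FOXO activity. The catalase gene Cat rose by 0.67 with PA and fell by 0.21 with C3G, the latter not past the threshold without PA replicate 1 (edgeR adjusted p = 0.0612) or PA + C3G replicate 3 (0.0616).

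Across the 9 libraries, the tested genes whose log2(FPKM + 0.1) followed each of the 8 genes most closely are given by Pearson's r. For Insr they were Gtf2h1 and LOC102555635 (r = 0.988 and 0.985), and for Igf1r Mpp2 and Ankib1 (0.978 and 0.976). For Irs1 they were Nuak2 and Ptcd2 (0.959 and 0.957), and for Irs2 Ptpn23 and Rab11fip1 (0.994 and 0.993). Further along the pathway they were Eif4a3 and Polr3b for Pik3r1 (0.991 and 0.990), Cstf3 and Abhd8 for Akt1 (0.970 and 0.961), Asf1a and Riok2 for Akt2 (both 0.980) and Mpv17l and Maob for Foxo1 (0.993 and 0.992). The libraries come from 3 groups, so such values describe mostly the order of the group means. The number of tested genes with r above 0.9 was 36 for Akt1, 52 for Irs1 and 71 for Igf1r, and 1260 for Pik3r1 and 1122 for Foxo1. Among the 8 genes themselves, the closest pairs were Insr with Irs2 and Pik3r1 with Foxo1, both at r = 0.946, and Pik3r1 with Akt2 at 0.927.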

How the data were processed

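INS-1E RNA was sequenced by the authors as poly(A)-selected, strand-marked paired-end libraries, 3 per group. For each gene the authors deposited estimated counts, whole numbers without normalization, and FPKM, scaled to gene length and mapped fragments. The submitters' processing notes name cutadapt 1.9, HISAT2 2.0.4, StringTie 1.3.4d, DESeq2 and edgeR without roles. The genome build is not given in the sources used here.

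The 8 genes and all gene lists were chosen with earlier results of these data known. The 12958 genes whose FPKM averaged 1 or more were tested on the estimated counts (edgeR 4.0.16, R 4.3.3, with TMM factors, glmQLFit and glmQLFTest, all 9 libraries in 1 fit), with Benjamini-Hochberg adjustment over all of them. Standard errors were taken from the fold change and the F statistic, and 95% intervals from them. Of the counts from 1 to 40, 31.7% were multiples of 4, more than of any other remainder (21.8% to 24.3%), so a count may not be 1 fragment, and counts divided by 4 were tried. Count sums of 45559993 to 66730721 per library set the precision. Other alternatives were DESeq2 1.42.0, median-ratio factors, TPM scaling (equal FPKM sums), no filter, a mean of at least 5 FPKM, fits of only the 2 groups compared, a replicate block, limma 3.58.1 on log2(FPKM + 1) and log2(FPKM + 0.1), and leaving out each library. Pairs of libraries correlated at r = 0.981 to 0.985 within groups and 0.943 to 0.977 across.

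Within-library FPKM ratios were compared by exact permutation. Named genes beyond the 8 are up to 6 with the largest rise and 6 with the largest fall per comparison from the lists, among those past an adjusted p of 0.05 with libraries apart, and the relatives Pik3ca, Foxo3, Insrr, Igf2r and Irs3. Genes named outside this rule (Igf2, Mapkap1, Mlst8, Pik3r2, Pik3r3, Map2k1, Mapk3, Igfbp7, Igfals, Sesn2 and Krt7) were chosen after their values were seen. Irs4, Eif4ebp1 and Pck1 were not analysed here, and some genes of the lists are not reported here by name.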

Additional observations from a re-analysis of the deposited data

How the results depend on the processing

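For the 8 genes, 19 alternatives were run in each comparison. At a mean of at least 5 FPKM, Insr and Irs1 were not tested. The number of the 8 genes that passed lay between 5 and 8 for PA versus BSA, between 3 and 4 for PA + C3G versus PA, and between 2 and 4 for PA + C3G versus BSA, against 7, 4 and 3 as reported. For the 65 other pathway genes the ranges were 34 to 42, 16 to 25 and 18 to 32, against 39, 21 and 27. Of 450 alternative fold changes of the 8 genes, 428 kept their direction and side of the threshold, 12 lost a call, 7 gained one and 3 changed sign. The last were Akt1 (-0.01) and Akt2 (-0.03) in PA + C3G versus PA under TPM scaling, and Igf1r in PA + C3G versus BSA without BSA replicate 2 (-0.02, and up to 0.18 without BSA replicate 1), none of which passed in either fit. The cause was not tested. With the replicate number as a block 7, 4 and 3 of the 8 genes passed, the same numbers as without it. Same-numbered libraries showed no shared deviation from their group means, with Pearson's r across genes between -0.0918 and 0.0796, and genes are not independent replicates.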
